A study of Mus musculus with 6 samples.

Results

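Ccr7, S1pr1, S1pr4, Klf2, Klf3, Cd69 and Cd44 belong to the program by which CD8+ T cells enter lymph nodes, leave them and stay in tissue, and their RNA was compared between GSK- and Veh-treated cells. The 7 genes were taken by symbol from the 16281 genes of the deposited count table, and all 7 had enough counts to be tested. The cells came from the spleens of OT1 mice, C57BL/6 animals with the transgene Tg(TcraTcrb)1100Mjb, so that nearly every CD8+ T cell carries a T-cell receptor for the same ovalbumin peptide. Both groups saw the same schedule, 48 h of activation by antibodies to CD3 and CD28 in the presence of IL-2, then 3 days of expansion with IL-2. The 3 GSK cultures received GSK2879552 (GSK), an inhibitor of the histone demethylase LSD1, at 0.5 μM during activation and expansion, and the 3 Veh cultures received vehicle. The study names 3 separate mice, whose age the sources used here do not give, and the receptor was triggered by antibody rather than by antigen on a presenting cell.

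A T cell enters a lymph node from the blood when CCR7 senses the chemokines CCL19 and CCL21 displayed in the node, and it leaves when S1PR1 senses sphingosine-1-phosphate (S1P), which is high in lymph and blood and low in tissue. KLF2 is a transcription factor of resting T cells that drives transcription of S1pr1, and CD69 is an early activation protein that binds S1PR1 at the membrane and takes it off the surface. T-cell receptor and IL-2 signals are known to lower KLF2, and naive and central memory cells are known for high CCR7, S1PR1 and KLF2, while effector cells and cells resident in tissue carry less of them.

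Between GSK and Veh, S1pr1, Klf2, Klf3 and S1pr4 were lower, Cd69 was higher, and Ccr7 and Cd44 did not pass the test. S1pr1 changed the most, 2.35-fold lower, followed by Klf3 and Klf2, 2.08-fold and 2.07-fold lower. The test was the quasi-likelihood test of edgeR, with p-values adjusted over 11698 genes by Benjamini-Hochberg and 0.05 as the threshold. It called 5 of 7 genes, against 32.1% of all genes tested, of which 4 were lower (15.5% of all genes) and 1 was higher (16.6%). When a fold change over 1.5 was also asked for, 3 of 7 were called down (S1pr1, Klf2 and Klf3), against 4.09% of all genes, and 0 were called up, against 2.22%. In 6 of 7 genes, all but Cd44, the samples of the groups did not overlap, 5 lower in GSK and 1 higher. Among all genes tested the share was 46.7%, 23.0% lower and 23.7% higher. The 7 genes were chosen with earlier results of these data known, so their shares beside all genes are only a description. These are levels in bulk RNA, in which fewer cells with a transcript and less transcript per cell cannot be told apart.

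**Figure D1:**
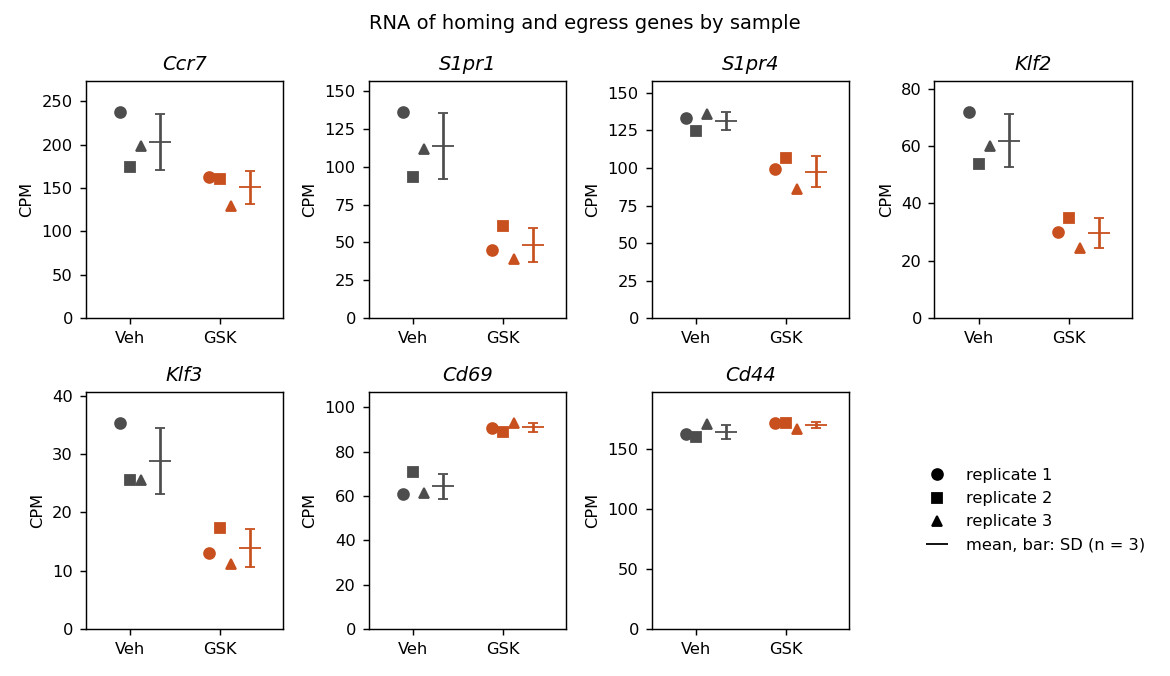
Normalised RNA level of the 7 genes (CPM, y axis, from 0) in each of 3 Veh samples (grey) and 3 GSK samples (orange), with the mean and SD beside them. For S1pr1, Klf2 and Klf3 all GSK samples lay far below all Veh samples, for Cd69 all lay above, and for Cd44 the samples of the groups mixed.

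The total counts lay between 18288447 and 18918811 in Veh and between 19149909 and 19846720 in GSK. Levels are CPM, the usual depth-scaled count of a gene, with library totals adjusted by TMM. Every pair of replicates differed by more than counting noise (chi-square per degree of freedom 3.95 to 9.02). All 7 markers of CD8+ T cells were present, with a summed level of 3023 to 3143 CPM in Veh and 2930 to 3081 CPM in GSK, and Cd8a had 9427 to 10964 counts per sample. Of these, Cd3e (log2 fold change -0.23), Cd3d (-0.16) and Cd3g (-0.38) were lower in GSK and Lck (0.13) was higher. The 4 CD4 T-cell markers summed to 43.9 to 53.2 CPM in Veh and 40.7 to 45.9 CPM in GSK, with 9 to 34 counts of Cd4, 642 to 940 of Zbtb7b, 32 to 95 of Foxp3 and 4 to 29 of Cd40lg, which was higher in GSK (1.52, adjusted p = 0.0181, edgeR). Of the endothelial genes, Cdh5, Vwf, Emcn and Tie1 had 0 to 6 counts per sample, Kdr 2 to 13 and Egfl7 117 to 166. The summed level of all 7 endothelial markers in the table was 79.2 to 86.4 CPM in Veh and 65.3 to 78.3 CPM in GSK, most of it from Pecam1 (74.0 and 63.4 CPM), which T cells also express. The NK list moved with treatment, its sum being 196 to 216 CPM in Veh and 423 to 457 CPM in GSK, nearly all of it from Eomes (204 and 433 CPM), a factor CD8+ T cells share, while Ncr1 had 0 to 1 count. Veh and GSK sums were 5.94 to 8.0 and 5.88 to 7.03 CPM for B cells, 2.84 to 4.79 and 1.30 to 2.73 CPM for myeloid cells, and 1.69 to 2.52 and 0.787 to 1.56 CPM for platelets and erythroid cells. The part of such cells in the results was not tested. The mean level of Kdm1a, which encodes LSD1, was 92.8 ± 5.45 CPM (SD, n = 3) in Veh against 87.1 ± 3.54 CPM in GSK (adjusted p = 0.224, edgeR), which does not bear on the activity of the inhibited enzyme.

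Ccr7, the receptor for entry into lymph nodes (Entrez gene 12775, chromosome 11 of GRCm38 from 99144199 to 99155077, minus strand), had 238, 174 and 199 CPM in Veh replicates 1, 2 and 3. In GSK replicates 1, 2 and 3 it had 163, 160 and 129 CPM. Every GSK sample lay below every Veh sample, with a narrow gap between Veh replicate 2 and GSK replicate 1. Its log2 fold change was -0.43 (standard error 0.15, 95% interval -0.81 to -0.051), with an adjusted p of 0.0855 from edgeR, so the difference did not pass. DESeq2 gave an adjusted p of 0.0395. With 1 sample left out, the log2 fold change ranged from -0.53 without Veh replicate 2, where the adjusted p of edgeR was 0.0286, to -0.31. The RNA was the most abundant of the 7 per length of annotated exons in both groups, as given below.

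S1pr1, the receptor that T cells follow out of lymph nodes (Entrez gene 13609, chromosome 3 from 115710433 to 115715055, minus strand), had 136, 93.1 and 112 CPM in the Veh replicates. The GSK replicates had 45.1, 60.7 and 38.9 CPM. No sample of one group reached the range of the other. The fitted log2 fold change was -1.23 (standard error 0.23, 95% interval -1.84 to -0.62, adjusted p = 0.0175, edgeR), larger in size than that of 98.3% of all genes tested. The spread was wide in both groups, with a coefficient of variation of 19.0% in Veh and 23.3% in GSK. The call was lost when either of 2 samples was left out, with an adjusted p of edgeR of 0.0536 without GSK replicate 1 and 0.0572 without GSK replicate 3, with log2 fold changes of -1.19 and -1.10. DESeq2 gave an adjusted p of 1.07e-05.

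S1pr4, a second receptor for the same lipid that lymphocytes carry (Entrez gene 13611, chromosome 10 from 81497745 to 81500137, minus strand), had 133, 125 and 136 CPM in Veh and 99.3, 107 and 86.3 CPM in GSK. Its groups did not overlap either, and it varied less than S1pr1 among the Veh samples (SD 4.60% of the mean). The log2 fold change was -0.43 (standard error 0.070, 95% interval -0.58 to -0.28, adjusted p = 9.41e-04, edgeR), below the fold change of 1.5. It passed with each sample left out in turn, with log2 fold changes between -0.50 and -0.35. S1pr4 and Ccr7 thus had nearly the same fitted change, with standard errors of 0.070 and 0.15. Of its nearest protein-coding neighbours in the RefSeq table, Ncln, 791 bases away, had a log2 fold change of -0.0032 (adjusted p = 0.968, edgeR), and Gna15, 2176 bases away, was lower (-0.37, adjusted p = 0.00658). Gna15 encodes a G protein alpha subunit and had 29.7 ± 1.54 CPM (SD, n = 3) in the Veh group against 22.9 ± 2.7 CPM.

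Klf2 (Entrez gene 16598, chromosome 8 from 72319062 to 72321654, plus strand) had 71.9, 53.6 and 60.0 CPM in the Veh replicates and 29.9, 34.9 and 24.5 CPM in the GSK replicates. The highest GSK sample was below the lowest Veh sample by a wide margin. On the log2 scale Klf2 fell by 1.05 (standard error 0.16, 95% interval of the change -1.42 to -0.68, adjusted p = 0.00304, edgeR). The change stayed past both thresholds with each sample left out, between -1.19 and -0.93. Its neighbours on either side did not pass, with a log2 fold change of 0.085 for Ap1m1 (adjusted p = 0.134, edgeR) and -0.13 for Eps15l1 (adjusted p = 0.0578).

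Klf3, a related factor that represses transcription and binds the same kind of CACCC element (Entrez gene 16599, chromosome 5 from 64803521 to 64832901, plus strand), had 35.4, 25.5 and 25.5 CPM in Veh. In GSK it had 13.1, 17.4 and 11.1 CPM. Again no GSK sample reached a Veh sample. The fitted log2 fold change was -1.05 (standard error 0.20, 95% interval -1.53 to -0.58, adjusted p = 0.00753, edgeR), and between -1.25 and -0.88 with 1 sample left out. Its annotated region overlaps the predicted genes Gm38457 over 5660 bases and Gm31684 over 2913 bases, neither of which is in the count table. Which strand was counted is not given in the sources used here, so reads there are uncertain. The neighbour Tlr1, a toll-like receptor gene 91779 bases away, was also lower (48.2 ± 2.22 and 37.2 ± 3.74 CPM in Veh and GSK, log2 fold change -0.37, adjusted p = 0.00257, edgeR). Tbc1d1, on the other side, did not pass (-0.16, adjusted p = 0.0545), nor did the tested neighbours of the remaining genes, which were Smarce1 for Ccr7 (0.050), Dph5 for S1pr1 (0.22), Clec2d for Cd69 (-0.16) and Pdhx for Cd44 (0.17).

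Of the 7 genes, 4 have a promoter in the RefSeq table of GRCm38.p6, here 250 bases before to 50 after the annotated start. The promoters of the 3 that were lower in GSK are shown, 5′ to 3′ on the strand of the gene, because members of the KLF family bind CACCC. Capitals mark CACCC on either strand (GGGTG where it lies on the opposite strand). They are Klf2 at chr8:72318812-72319111, Klf3 at chr5:64803271-64803570 and S1pr4 at chr10:81500088-81500387.
Klf2: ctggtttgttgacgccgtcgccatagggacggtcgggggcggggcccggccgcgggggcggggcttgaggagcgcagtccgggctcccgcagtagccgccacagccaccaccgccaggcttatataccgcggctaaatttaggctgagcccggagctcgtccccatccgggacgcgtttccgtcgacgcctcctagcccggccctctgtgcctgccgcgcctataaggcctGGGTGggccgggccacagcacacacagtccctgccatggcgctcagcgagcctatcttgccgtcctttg
Klf3: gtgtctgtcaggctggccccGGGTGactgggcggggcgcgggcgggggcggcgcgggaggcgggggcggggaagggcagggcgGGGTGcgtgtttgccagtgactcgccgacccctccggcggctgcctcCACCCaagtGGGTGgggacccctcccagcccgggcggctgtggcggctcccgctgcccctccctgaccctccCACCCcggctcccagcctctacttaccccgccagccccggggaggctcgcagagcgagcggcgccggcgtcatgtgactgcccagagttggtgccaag
S1pr4: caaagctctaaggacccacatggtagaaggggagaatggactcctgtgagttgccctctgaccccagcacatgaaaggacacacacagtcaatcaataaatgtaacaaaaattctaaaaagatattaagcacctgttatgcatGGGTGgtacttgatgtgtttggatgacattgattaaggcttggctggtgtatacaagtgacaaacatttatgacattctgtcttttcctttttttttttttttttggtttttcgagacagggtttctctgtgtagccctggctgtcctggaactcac
The Klf3 promoter held 5 matches, from 230 to 48 bases before the start, and 1.02% of the 32851 promoters in the table hold 5 or more. Those of Klf2 and S1pr4 held 1 match each, 19 and 107 bases before the start, and 57.5% of all promoters hold at least 1. The Klf3 window is rich in G and C (76.7%, against 69.3% for Klf2 and 41.0% for S1pr4). The promoter of Cd44 held 0 matches. Matches to the FOXO site GTAAACA, the AP-1 site TGANTCA and the Myc E-box CACGTG were 0 in all 4 promoters, where 3.65%, 7.81% and 7.15% of all promoters hold them. A match is a string of letters in this window and was not tied to binding of any factor.

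Cd69, the antagonist of S1PR1 on the surface (Entrez gene 12515, chromosome 6 from 129267324 to 129275375, minus strand), moved the other way. It had 61.0, 70.6 and 61.2 CPM in Veh and 90.8, 89.0 and 93.0 CPM in GSK. The GSK samples were tightly grouped (SD 2.23% of the mean) above all Veh samples. The log2 fold change was 0.50 (standard error 0.061, 95% interval 0.37 to 0.63, adjusted p = 8.55e-05, edgeR), a 1.42-fold rise that stayed below the fold change of 1.5. It was between 0.47 and 0.57 with 1 sample left out, and the adjusted p reached at most 0.00155. Of the 7 genes it had the smallest adjusted p.

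Cd44, the hyaluronan receptor that T cells keep after activation (Entrez gene 12505, chromosome 2 from 102811141 to 102901669, minus strand), had 163, 160 and 171 CPM in Veh. In GSK it had 171, 172 and 167 CPM, within and beside the range of Veh. The log2 fold change was 0.048 (standard error 0.044, 95% interval -0.046 to 0.14, adjusted p = 0.431, edgeR), so a rise above 1.10-fold and a fall below 0.968-fold of the Veh level lie outside the interval. Of its annotated span, 107 bases overlap the small RNA gene Gm23731, which is not in the count table. It also had the smallest spread of the 7 genes, 3.57% of the mean in Veh and 1.61% in GSK.

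**Figure D2:**
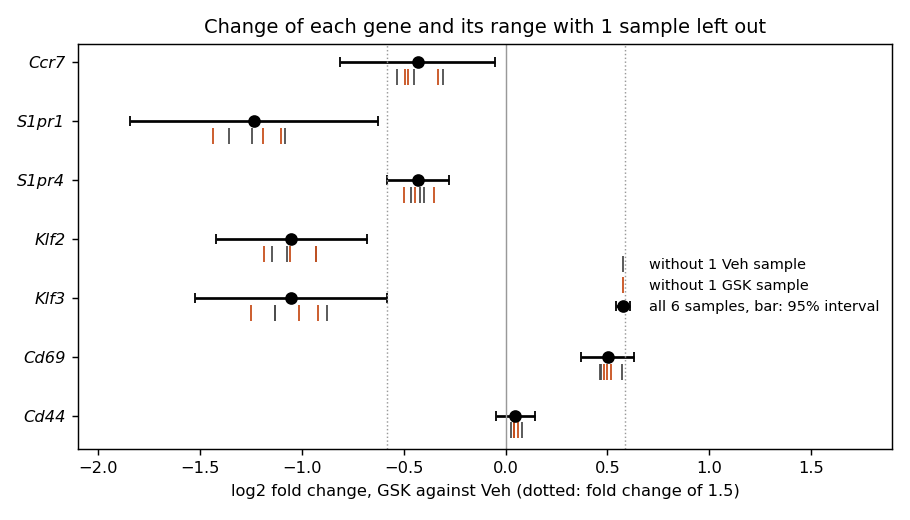
Log2 fold change of each gene, GSK against Veh (x axis), with its 95% interval from edgeR, and below it the values with 1 Veh (grey) or 1 GSK (orange) sample left out. The intervals of S1pr1 and Klf2 lay wholly beyond a fold change of 1.5 (dotted), that of Klf3 reached just inside it, that of S1pr4 lay between 0 and 1.5, those of Ccr7 and Cd69 crossed 1.5, and that of Cd44 crossed 0.

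The levels were divided by the length of all annotated exons of a gene in GENCODE M21 and ordered across genes. In Veh, Ccr7 led with 103 ± 16.3 CPM per kb (SD, n = 3), before S1pr4 (55.0 ± 2.53), S1pr1 (37.3 ± 7.08), Klf2 (33.5 ± 5.02), Cd44 (24.3 ± 0.867), Cd69 (9.87 ± 0.845) and Klf3 (2.56 ± 0.506). The ranges of S1pr1 and Klf2 overlapped there. Within each Veh sample S1pr1 lay above Klf2 (44.7 and 38.9, 30.6 and 29.0, 36.7 and 32.5 CPM per kb in replicates 1, 2 and 3). In GSK the order was Ccr7 (76.2 ± 9.54 CPM per kb), S1pr4 (40.8 ± 4.32), Cd44 (25.1 ± 0.404), Klf2 (16.1 ± 2.82), S1pr1 (15.8 ± 3.69), Cd69 (14.0 ± 0.311) and Klf3 (1.23 ± 0.284). Cd44 stood below S1pr1 and Klf2 in Veh and above both in GSK. In GSK, Klf2 and S1pr1 lay within each other's spread. The mean of Cd69 lay within the wide spreads of Klf2 and S1pr1, while their means lay above its own narrow spread. This length joins the exons of all annotated transcripts. It is 11243 bases for Klf3, 6776 for Cd44 and 6509 for Cd69, whose annotated span is 8052 bases. Transcripts shorter than that would raise the level of a gene per kb, so the order across genes depends on the length used.

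Ratios of counts within a sample do not depend on how the libraries are scaled, and 4 pairs were compared. The S1pr1 to Cd69 ratio, receptor to antagonist, was 2.23, 1.32 and 1.83 in the Veh replicates and 0.497, 0.683 and 0.419 in the GSK replicates. S1pr1 thus had more counts than Cd69 in every Veh sample and fewer in every GSK sample, and the geometric mean of the ratio was 3.36-fold lower in GSK. Counts are not divided by gene length, so on which side of 1 a ratio lies depends on the 2 lengths. Per kb of annotated exons, S1pr1 stood above Cd69 in GSK replicates 1 and 2 (14.8 and 14.0, 19.9 and 13.7 CPM). In GSK replicate 3 it stood below (12.8 and 14.3 CPM). The S1pr4 to S1pr1 ratio was 0.977, 1.34 and 1.22 in Veh and 2.20, 1.76 and 2.22 in GSK, a geometric mean 1.75-fold higher. The Ccr7 to Cd44 ratio was 1.46, 1.09 and 1.16 in Veh and 0.951, 0.932 and 0.773 in GSK. In all 3 pairs the groups did not overlap, and the exact permutation test (two-sided) gave p = 0.1, the smallest that 3 samples against 3 allow, or 0.133 adjusted over the 4 pairs. The Klf2 to Klf3 ratio was 2.03, 2.1 and 2.35 in Veh and 2.29, 2.01 and 2.21 in GSK. Both Klf genes fell while their ratio kept to between 2.01 and 2.35 in all 6 samples (exact permutation p = 1).

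**Figure D3:**
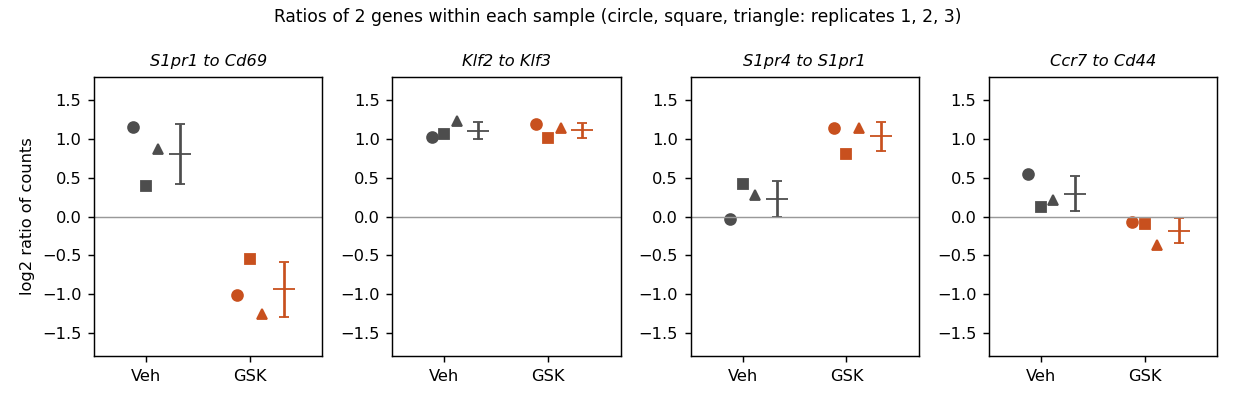
Log2 ratio of the counts of 2 genes (y axis) in each Veh (grey) and GSK (orange) sample, with the mean and SD (n = 3) beside them. The S1pr1 to Cd69 ratio lay above 0 in all Veh samples and below 0 in all GSK samples, and the Klf2 to Klf3 ratio lay near 1 in all 6. Counts were not divided by gene length, so the side of 0 on which a ratio lies depends on the 2 lengths.

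Several of the 7 genes shared an order of samples within the groups. Klf2 and S1pr1 had the same order of samples in both groups (Veh 1 over Veh 3 over Veh 2, and GSK 2 over GSK 1 over GSK 3), an order found in 5.64% of all genes tested. S1pr4 shared another order in both groups with Cd44, which did not pass the test (Veh 3 over Veh 1 over Veh 2, and GSK 2 over GSK 1 over GSK 3). The share of all genes with this order was not counted, and Cd44 deviated from its group means by at most 0.057 on the log2 scale. GSK replicate 3 was the lowest GSK sample for Ccr7, S1pr1, S1pr4, Klf2 and Klf3 and also for Cd44, as it was for 36.2% of all genes tested, and it was the highest for Cd69. Veh replicate 1 was the highest Veh sample for Ccr7, S1pr1, Klf2 and Klf3, as it was for 34.0% of all genes tested, and the lowest for Cd69. Both held together for Ccr7, S1pr1, Klf2 and Klf3, as they did for 16.2% of all genes tested. On the log2 scale S1pr1 deviated from its group mean by 0.28 in Veh replicate 1 and 0.36 in GSK replicate 2, Klf2 by 0.23 and 0.24, and Klf3 by 0.31 and 0.35. A cause of these differences between cultures was not tested.

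**Figure D4:**
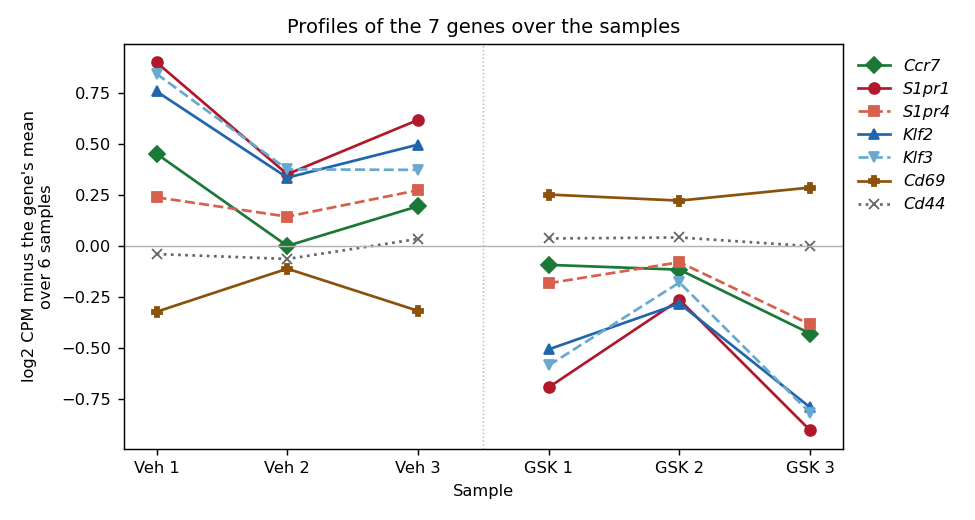
Log2 CPM of each gene minus its mean over the 6 samples (y axis) in each Veh and GSK sample (x axis). Lines join points of a gene within a group and mark no order of the replicates. S1pr1, Klf2 and Klf3 ran close together, S1pr4 and Ccr7 moved less, and Cd69 ran the other way.

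Likeness was measured as the root mean square distance between profiles of log2 CPM over the 6 samples, each centred on its own mean, among genes with a mean of at least 10 CPM. For S1pr1 the closest of 8691 genes was Itga4 (distance 0.064), the alpha 4 chain of the integrins that bind VCAM-1 and MAdCAM-1, followed by Rgs11 (0.077) and Pde2a (0.11). Itga4 had 48.9 ± 8.7 CPM (SD, n = 3) in the Veh group and 19.1 ± 4.64 CPM with GSK (log2 fold change -1.35, adjusted p = 0.00573, edgeR). Klf2 and Klf3 stood at ranks 4 and 5 of that order. For Klf2 the closest genes were Tmem71 (0.030), Irak2 (0.077) and Klf3 (0.084), and for Klf3 they were Apol7e (0.074), Klf2 (0.084) and Rgs11 (0.085). Tmem71 had 99.3 ± 14.6 and 49.8 ± 9 CPM in Veh and GSK (log2 fold change -0.99, adjusted p = 0.00904, edgeR). The closest to Ccr7 were Cd5, a negative regulator of T-cell receptor signals (0.076), Kdm4b (0.079) and Ypel5 (0.080), and to S1pr4 they were Heca, Zbtb38 and Cblb (0.030 to 0.033). Cblb encodes a ubiquitin ligase that restrains T-cell activation and had 230.2 ± 5.86 CPM and 172 ± 16.6 CPM in Veh and GSK. For Cd69 the closest were Epop, F2rl3 and Trim44 (0.033 to 0.041), and for Cd44 Abca2, Grk2 and Fip1l1 (0.0070 to 0.018). The groups differ by treatment, so genes with a change of like size come out close.

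Around the receptors, 13 lists of related genes were compared, 205 genes in all, of which 167 were tested. Of these, 28 (16.8%) were higher and 40 (24.0%) were lower in GSK by the same threshold, beside 16.6% and 15.5% of all genes. The median log2 fold change was -0.43 over the 7 homing and egress genes and -0.0039 over all genes tested. Like the 7 genes, the lists were chosen with earlier results of these data known, and their shares and medians are only a description.

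**Figure D5:**
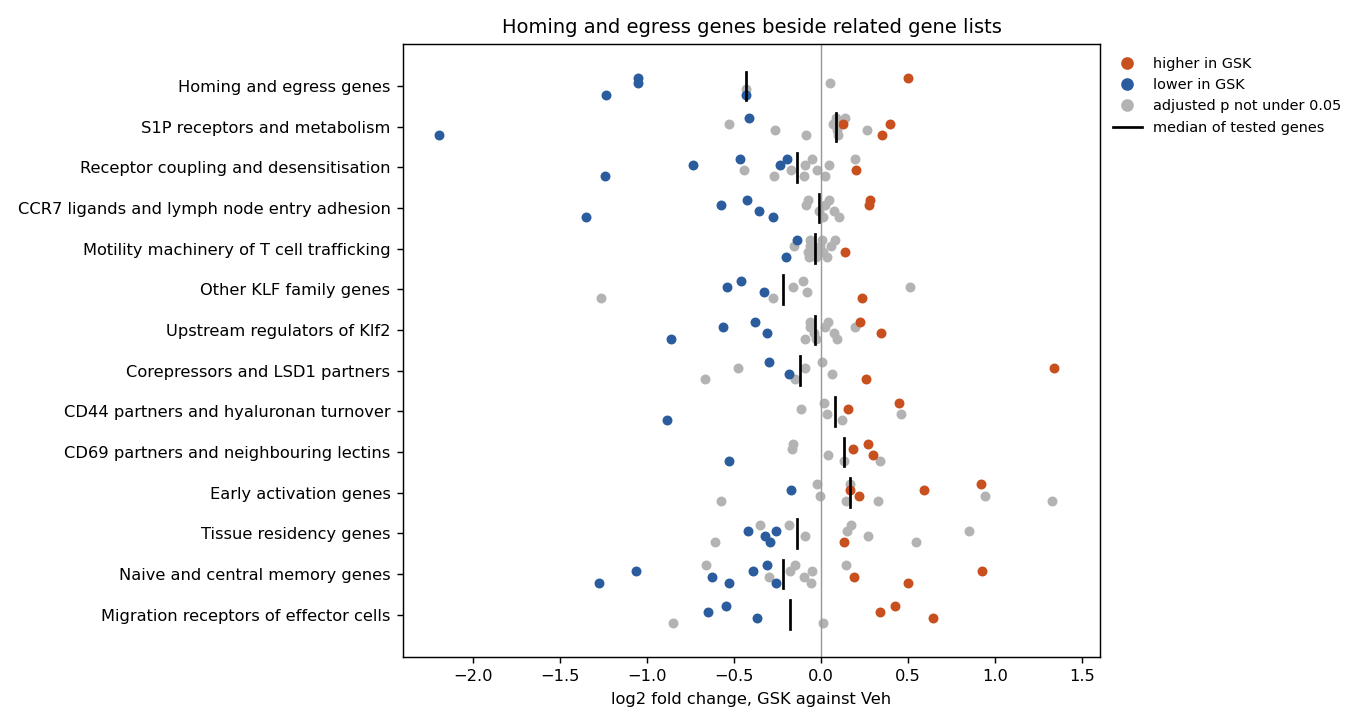
Log2 fold change, GSK against Veh (x axis), of the tested genes of each list, coloured by whether they were higher (orange) or lower (blue) at an adjusted p under 0.05 or did not pass (grey), with the median of each list. The homing and egress genes had the lowest median (-0.43), the motility list was the narrowest (-0.20 to 0.14), and the medians of the other lists lay between -0.22 and 0.17. Genes and lists were chosen with earlier results of these data known.

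In the list of other S1P receptors and enzymes, 14 of 19 genes were tested, 3 were higher and 2 lower, with a median log2 fold change of 0.087. S1pr2 had 14.8 ± 0.793 CPM (SD, n = 3) in Veh and 12.3 ± 0.801 CPM in GSK (adjusted p = 0.0535, edgeR), while S1pr3 and S1pr5 had 0 to 5 and 0 to 2 counts per sample and were not tested. S1pr1 had 747 to 2502 counts per sample and S1pr4 had 1656 to 2593. Sgpl1, the lyase that breaks down S1P, rose from 49.4 ± 3.48 to 64.9 ± 0.978 CPM (log2 fold change 0.39, adjusted p = 4.34e-04, edgeR). Cers6, a ceramide synthase, rose from 13.6 ± 0.691 to 17.3 ± 0.914 CPM (0.35, adjusted p = 0.0106). Spns2, an exporter of S1P, fell at a very low level, from 17, 10 and 14 counts in the Veh samples to 1, 5 and 3 in the GSK samples (log2 fold change -2.19, adjusted p = 0.00985). The 2 lower calls became 1 with DESeq2, without Veh replicate 1 and without Veh replicate 2.

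Of the genes for receptor coupling and desensitisation, 16 of 17 were tested, with 1 higher, 5 lower and a median of -0.14. Arrb1, which encodes beta-arrestin 1, fell from 221 ± 18.8 to 93.3 ± 18.2 CPM (SD, n = 3, log2 fold change -1.24, adjusted p = 0.00394, edgeR), beside -1.23 for S1pr1. Rgs10, which shortens the signal of G proteins, fell from 43.9 ± 5.72 to 26.4 ± 4.57 CPM (-0.73, adjusted p = 0.00405). Gna13, a G protein alpha subunit that couples to S1PR2, fell from 364 ± 6.35 to 309.7 ± 9.6 CPM (-0.23, adjusted p = 8.31e-04). Without GSK replicate 1, 3 genes were lower in place of 5.

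The list of CCR7 ligands and adhesion genes for entry into nodes had 15 of 18 genes tested, with 2 higher, 5 lower and a median of -0.013. Its integrin chains moved in both directions, with Itga4 lower as given above. Itgal, the alpha chain of LFA-1, rose from 945 ± 1.84 to 1146 ± 25.6 CPM (SD, n = 3, log2 fold change 0.28, adjusted p = 4.99e-05, edgeR). Itgb7, which pairs with the alpha 4 chain, fell from 318 ± 7.08 to 213 ± 13 CPM (-0.58, adjusted p = 4.90e-06). Rasgrp2, an activator of the integrin switch Rap1, fell from 226 ± 10.4 to 177 ± 4.89 CPM (-0.36, adjusted p = 1.37e-04). Of the 16 genes for motility, all tested, 1 was higher (Elmo1, log2 fold change 0.14) and 2 lower (Wipf1, -0.20, and Dock8, -0.14), and the 13 others did not pass. In the motility list the higher call was lost without Veh replicate 2, Veh replicate 3 or GSK replicate 1, and the lower calls were 1 without Veh replicate 1, Veh replicate 3 or GSK replicate 1 and 5 without GSK replicate 2.

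Among the other members of the KLF family, 10 of 15 were tested, with 1 higher, 3 lower and a median of -0.22. Klf13 fell from 227 ± 7.22 to 165 ± 14.7 CPM (SD, n = 3, log2 fold change -0.46, adjusted p = 1.47e-04, edgeR). Klf10 fell from 27.2 ± 1.37 to 21.6 ± 0.479 CPM (-0.33, adjusted p = 0.00463) and Klf11 from 11.3 ± 1.07 to 7.78 ± 0.757 CPM (-0.54, adjusted p = 0.00588). These 3 stayed below the fold change of 1.5 that Klf2 and Klf3 passed. The single higher call was lost with DESeq2 and without Veh replicate 1, Veh replicate 3, GSK replicate 1 or GSK replicate 3.

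In the list of regulators upstream of Klf2, 16 of 17 were tested, with 2 higher, 4 lower and a median of -0.033. Foxo3, a forkhead factor, fell from 86.3 ± 1.75 to 47.4 ± 3.56 CPM (SD, n = 3, log2 fold change -0.86, adjusted p = 1.24e-06, edgeR), and Mef2d, a MEF2 factor downstream of the kinase ERK5, from 201 ± 12.4 to 154 ± 6.65 CPM (-0.38, adjusted p = 2.27e-04). Wwp1, a ubiquitin ligase that acts on KLF2 protein, rose from 55.7 ± 0.762 to 70.8 ± 4.1 CPM (0.35, adjusted p = 6.76e-04). Foxo1, a forkhead factor known to drive Klf2, had 133 ± 7.94 and 127 ± 9.94 CPM in Veh and GSK (adjusted p = 0.453).

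Of the 11 corepressors and partners of LSD1 on the list, 10 were tested, with 2 higher, 2 lower and a median of -0.12. Gfi1, a repressor that recruits LSD1, rose from 45 ± 3.32 to 113 ± 7.45 CPM (SD, n = 3, log2 fold change 1.33, adjusted p = 6.37e-08, edgeR). Hdac2, a histone deacetylase, rose from 83 ± 4.61 to 99.4 ± 6.35 CPM (0.26, adjusted p = 0.00524), and Fhl3, a cofactor of KLF3, fell from 48 ± 0.751 to 42.3 ± 2.23 CPM (-0.18, adjusted p = 0.0354). The lower calls, Fhl3 among them, became 0 with DESeq2 and without Veh replicate 2, Veh replicate 3 or GSK replicate 1, and 1 without Veh replicate 1 or GSK replicate 3.

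Around Cd44, 8 of 18 genes of hyaluronan turnover and membrane linkage were tested, with 2 higher, 1 lower and a median of 0.077. Ezr, the linker ezrin that ties CD44 to actin, rose from 637 ± 32.6 to 707 ± 22.1 CPM (SD, n = 3, log2 fold change 0.15, adjusted p = 0.0158, edgeR). Cemip2, a membrane protein linked to hyaluronan breakdown, rose from 18.7 ± 2.07 to 25.5 ± 1.11 CPM (0.45, adjusted p = 0.00230). Spp1, the CD44 ligand osteopontin, fell from 11.6 ± 4.3 to 6.28 ± 0.793 CPM (-0.88, adjusted p = 0.0295). The hyaluronan synthase genes Has1 and Has2 had 0 to 1 count per sample. The call of Spp1, the lower gene of this list, was lost with no filter on low counts and without Veh replicate 1, GSK replicate 1 or GSK replicate 2. The higher calls were 1 without Veh replicate 1 or GSK replicate 1 and 4 without Veh replicate 2 or GSK replicate 2.

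Around Cd69, 9 of 13 genes were tested, with 3 higher, 1 lower and a median of 0.13. Lgals1 and Myl12a, whose proteins are described as ligands of CD69, had log2 fold changes of 0.18 and 0.27 (adjusted p = 0.00606 and 0.00106, edgeR). Clec2i, a lectin gene with close relatives that could share its reads, fell from 62.9 ± 4.63 to 43.5 ± 3.24 CPM (SD, n = 3, log2 fold change -0.53, adjusted p = 1.65e-04). Of the other early activation genes, 13 of 14 were tested, with 4 higher, 1 lower and a median of 0.17. Il2ra, the IL-2 receptor alpha chain, rose from 854 ± 26.7 to 1285 ± 55.5 CPM (0.59, adjusted p = 6.36e-07). Icos, a costimulatory receptor, rose from 133 ± 8.45 to 154 ± 4.91 CPM (0.22, adjusted p = 0.00722), and Junb, an AP-1 subunit, fell from 95.7 ± 4.1 to 84.8 ± 5.65 CPM (-0.17, adjusted p = 0.0345). Without GSK replicate 2 the list around Cd69 had 5 higher and 2 lower. The 4 higher early activation genes became 2 without Veh replicate 1, Veh replicate 2, GSK replicate 1 or GSK replicate 3, and the call of Junb was lost without Veh replicate 3 or GSK replicate 2.

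High Cd69 with low S1pr1 and Klf2 is also known from cells resident in tissue, and other genes of that state were listed beside them. Of these, 14 of 17 were tested, with 1 higher, 4 lower and a median of -0.14. The transcription factor gene Bhlhe40 fell from 308 ± 22.4 to 229.6 ± 10.8 CPM (SD, n = 3, log2 fold change -0.42, adjusted p = 1.58e-04, edgeR). Tgfbr2, a TGF-beta receptor chain, fell from 224 ± 9.96 to 179 ± 8.02 CPM (-0.32, adjusted p = 3.79e-04) and the transcription factor gene Runx3 from 230.1 ± 6.37 to 188 ± 12.3 CPM (-0.29, adjusted p = 0.00100). Genes of the residency integrins and of a chemokine receptor did not pass, with 21 ± 8.12 and 23.2 ± 2.59 CPM for Itgae, 0.766 ± 0.261 and 0.498 ± 0.225 CPM for Itga1 and 162 ± 11.8 and 143 ± 14.9 CPM for Cxcr6 in Veh and GSK. Itga1 had only 5 to 19 counts per sample. Xcl1 (log2 fold change 0.85, adjusted p = 0.0825, edgeR) and Cd101 (0.27, adjusted p = 0.143) were higher by their means and did not pass. The single higher gene of this list was Notch1 (0.13, adjusted p = 0.042). Its call was lost without GSK replicate 1 or any 1 Veh sample, and there were 2 higher calls without GSK replicate 2 and with DESeq2.

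Of the genes of naive and central memory cells, 18 of 18 were tested, with 3 higher, 7 lower and a median of -0.22. The 3 higher genes were Il6ra (log2 fold change 0.92, adjusted p = 0.0199, edgeR), Slamf6 (0.50, adjusted p = 0.0378) and Myb (0.19, adjusted p = 0.0423). The 8 others that were neither higher nor lower did not pass. The 3 higher calls became 0 without Veh replicate 2 and 1 without Veh replicate 1, Veh replicate 3 or GSK replicate 1. Actn1, an actin crosslinker, fell from 47.1 ± 4.9 to 32.6 ± 1.52 CPM (SD, n = 3, log2 fold change -0.53, adjusted p = 3.67e-04, edgeR). The transcription factor genes Bach2 and Lef1 fell from 69.9 ± 4.97 to 45.3 ± 6.35 CPM (-0.63, adjusted p = 6.81e-04) and from 101 ± 5.79 to 76.8 ± 6.79 CPM (-0.39, adjusted p = 9.46e-04). Of the 7 lower genes, Tcf7 fell the most, from 300 ± 42.8 to 124 ± 26.9 CPM (-1.28, adjusted p = 0.012). Dapl1 came next (-1.06, adjusted p = 0.0175), and Cd28 (-0.31) and Treml2 (-0.26) fell the least. Among migration receptors of effector cells, 8 of 12 were tested, with 3 higher, 3 lower and a median of -0.18. The inflammatory chemokine receptor gene Ccr2 rose from 573 ± 25.6 to 725 ± 44.2 CPM (log2 fold change 0.34, adjusted p = 3.04e-04, edgeR). Itgb1, which also pairs with the alpha 4 chain, fell from 348 ± 23.6 to 269 ± 13.7 CPM (-0.37, adjusted p = 3.48e-04).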

How the data were processed

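RNA of 3 GSK and 3 Veh samples was analysed. The authors trimmed reads with Trimmomatic, mapped them to GRCm38 by HISAT2 (version 2.1.0) and obtained gene counts by HTSeq (version 0.11.2). The deposited values are raw counts, between 18288447 and 19846720 per sample. The annotation release and strand setting are not given in the sources used here. Comparisons used edgeR (version 4.0.16, under R 4.3.3) with TMM scaling, filterByExpr, its quasi-likelihood test with robust dispersions and Benjamini-Hochberg adjustment over the 11698 genes left. Standard errors and 95% intervals came from the test statistic. The procedure was tested on simulated counts of 11613 genes. It found 100% of 200 changed genes, with 15 false calls. Every simulated gene had the same dispersion, so the test does not cover genes with a wider spread. DESeq2 (version 1.42.0), other scaling and filters, a replicate block, a test against a fold change of 1.5 and leaving out each sample were alternatives.

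The members and lists were chosen with earlier results of these data known. Named genes are the 7 genes, up to 3 genes per list with the smallest p under an adjusted p of 0.05 (1 such gene and 1 marker are not reported here), the 3 genes closest in profile to each member, neighbours, markers and Kdm1a. S1pr2, S1pr3, S1pr5, Foxo1, Has1, Has2, Itgae, Itga1, Cxcr6, Xcl1, Cd101, Notch1, Il6ra, Slamf6, Myb, Tcf7, Dapl1, Cd28 and Treml2 lie outside this rule and were chosen after their values were seen. Coordinates are of GRCm38.p6 (RefSeq). Nothing states which cultures share a mouse across groups, so p-values measure the spread between these samples. The proteins were not compared here.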

Additional observations from a re-analysis of the deposited data

How the results depend on the processing

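The 7 genes kept their direction under every alternative run, which were DESeq2, RLE size factors, no filter on low counts, at least 1 CPM in 3 samples, a replicate block, testing fold changes against 1.5, and leaving out each sample. With that test against 1.5, 0 genes were called higher and 0 lower (adjusted p 0.43 for S1pr1 at -1.23, 0.174 for Klf2 at -1.05, 0.346 for Klf3 at -1.05, and 1 for S1pr4 at -0.43 and Cd69 at 0.50), with 69 higher and 65 lower among all genes, and 1 higher and 1 lower gene of the related lists in place of 28 and 40. Its threshold is stricter by construction. Counts within single lists that moved when a sample was left out are given with those lists. Ccr7 passed with DESeq2 (-0.43, adjusted p = 0.0395), with the replicate block (-0.43, adjusted p = 0.0136) and without Veh replicate 2 (-0.53), and had adjusted p-values up to 0.182 with another sample left out. Log2 fold changes with 1 sample left out were -0.53 to -0.31 for Ccr7 and -1.44 to -1.09 for S1pr1. The difference in the log2 Klf2 to Klf3 ratio, 0.0052, had no stable sign, and ranged from -0.038 to 0.068 with 1 sample left out. Whether same-numbered samples share a mouse cannot be told from these values. The correlation of same-numbered deviations across genes was -0.052, -0.081 and 0.16 for replicates 1, 2 and 3. With the replicate block the standard error of Ccr7 went from 0.15 to 0.093. The block changed no other call among the 7 genes, while the single higher calls of the other KLF and of the residency genes became 0. Counting depth limits statements on S1pr3, S1pr5 and Spns2. Outliers were not tested, as groups held 3 samples.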
